A study of Mus musculus with 2 samples.

Results

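Genes of bone mineralization were examined in primary mouse osteoblasts, the cells that lay down and mineralize bone matrix. They are Ibsp, Bglap, Sparc, Alpl, Ank and Cdh11, found through the gene name or RefSeq accession beside each spot of the array. Each had 1 probe, so the 6 genes were 6 of 3757 probes. They were chosen by earlier results on these same intensities, the measured ratios of both arrays, so their values are given as a description and no test was run. The treated culture received TGF-beta1 at 2 ng/ml for 24 h, and the control culture received none. Both were kept in alphaMEM with 0.2% FBS, a serum-starved condition. There was 1 sample per group, each labelled with Cy3 on an array of its own, so no difference below has a replicate check. The labels used here give no strain, age, bone of origin or passage, and they do not say whether cells of several animals were pooled.

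Mineral forms in bone when phosphate and calcium deposit on a collagen scaffold. Tissue-nonspecific alkaline phosphatase, encoded by Alpl, cleaves pyrophosphate, an inhibitor of crystal growth, and Ank moves pyrophosphate out of the cell. Bone sialoprotein, encoded by Ibsp, promotes the nucleation of hydroxyapatite, and osteocalcin, encoded by Bglap, binds calcium through carboxylated glutamate residues. Osteonectin, encoded by Sparc, binds collagen and calcium, and cadherin 11, encoded by Cdh11, joins osteoblasts to each other. TGF-beta1 is stored in bone matrix, and in osteoblast cultures it is known to favour early matrix-forming cells over late mineralizing ones.

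RefSeq promoter windows of assembly GRCm38.p6 were matched for 5 of the 6 genes, Ibsp, Bglap, Sparc, Alpl and Ank. Those of Ibsp and Bglap are shown because they encode the mineral-binding matrix proteins whose signals had the largest and the smallest difference between the arrays. Each sequence is the 250 bases before the annotated start, 5′ to 3′ on the strand of the gene. It lies at chr5:104299037-104299286 on the plus strand for Ibsp and at chr3:88384467-88384716 on the minus strand for Bglap. Capitals mark the TATA box as TATAAA, the box bound by nuclear factor Y as CCAAT, and the core of RUNX factor sites as TGTGGT, each searched on both strands. None of these matches overlapped another.
Ibsp: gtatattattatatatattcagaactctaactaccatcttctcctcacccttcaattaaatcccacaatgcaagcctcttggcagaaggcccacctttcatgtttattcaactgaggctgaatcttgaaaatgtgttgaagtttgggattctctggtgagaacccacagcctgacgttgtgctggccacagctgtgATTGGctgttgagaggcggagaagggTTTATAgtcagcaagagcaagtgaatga
Bglap: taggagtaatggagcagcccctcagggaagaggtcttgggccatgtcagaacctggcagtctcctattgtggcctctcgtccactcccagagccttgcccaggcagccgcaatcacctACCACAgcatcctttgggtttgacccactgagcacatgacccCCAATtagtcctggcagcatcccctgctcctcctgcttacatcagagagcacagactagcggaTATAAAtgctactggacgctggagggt
With positions counted back from the start, the Ibsp window held TATAAA on the opposite strand from -28 to -23 and CCAAT on the opposite strand from -54 to -50. In the Bglap window, TATAAA lay from -27 to -22, CCAAT from -90 to -86, and TGTGGT on the opposite strand from -132 to -127. Among all 32851 windows of the same length, 12.4% held the TATA box letters, 33.8% the CCAAT letters and 14% the RUNX core. Further motifs searched on both strands and not capitalised were the E-box, written CANNTG, the AP-1 site, written TGANTCA, and the Smad box, written CAGAC. The Ibsp window held E-boxes from -142 to -137, from -62 to -57 and from -11 to -6. The Bglap window held an E-box from -100 to -95 and a Smad box from -39 to -35. The letters of the AP-1 site were in neither window, and those of the Smad box were not in that of Ibsp. Of all windows, 66.2% held an E-box, 6.75% an AP-1 site and 42.2% a Smad box. These are matches of letters in a window and were not tied to the array values.

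The array values were spot intensities on a linear scale in arbitrary units. The authors' signal threshold was 87.4, set by the brightest lambda phage control spot, where the lambda spots averaged 67.0. A probe above 87.4 on an array is called detected there. On the TGF-beta1 array 866 probes were detected and on the untreated array 924, with 795 detected on both and 200 on 1 array only. All 6 genes were detected on at least 1 array. Bglap, Sparc and Alpl were detected on both, Ank on the TGF-beta1 array only, and Ibsp and Cdh11 on the untreated array only. To describe the scale, 8 of the 9 housekeeping spots in the authors' deposited table had a ratio of TGF-beta1 over untreated under 1, with a range of 0.761 to 1.01 and a median of 0.918. A cDNA synthesis control had a ratio of 0.705 and a coupling control 0.768. All of these spots lay in array block E3, whose gene probes had a median log2 ratio of -0.24. The part of array position in the control ratios was not tested. Summed over all gene probes, the signal was 431093 with TGF-beta1 and 427889 without.

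**Figure D1:**
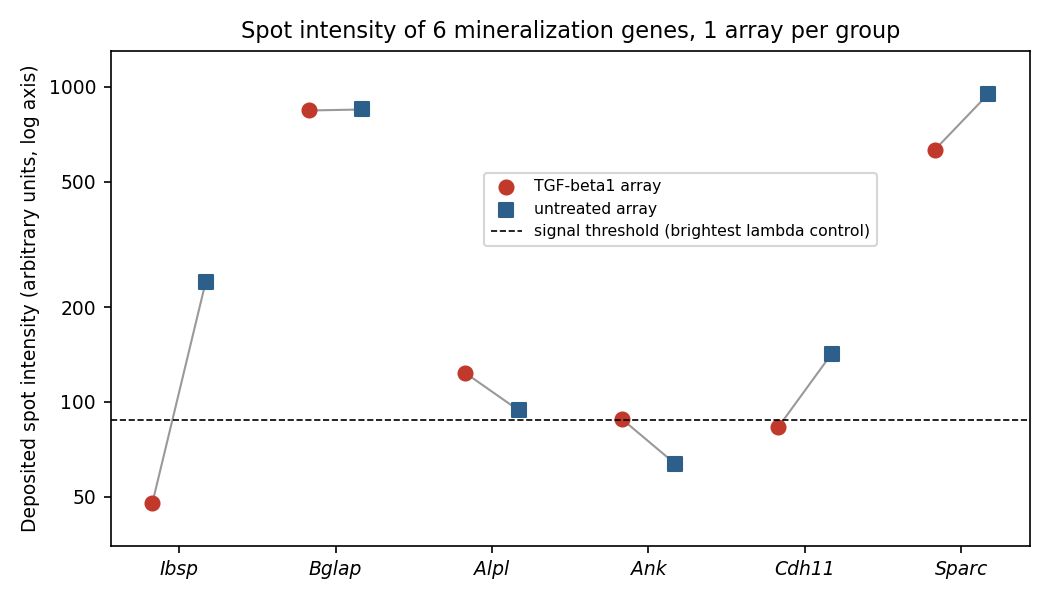
Deposited spot intensity of each gene (log axis, arbitrary units) on the TGF-beta1 array (circles) and the untreated array (squares), 1 array per group and therefore no error bars, with the signal threshold of 87.4 as a dashed line. Ibsp and Cdh11 cross the line downwards with TGF-beta1, Ank reaches it with TGF-beta1, and the points of Bglap lie nearly level.

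Ibsp showed the largest difference of the 6 genes. Its intensity was 47.9 on the TGF-beta1 array, against 240 on the untreated array. The untreated signal was 2.74 times the threshold, and the treated signal was 0.548 times the threshold and below the mean of the lambda spots. The measured intensities differed 5.01-fold, a log2 ratio of -2.32. Because the treated spot was not above the threshold, the difference is given as a bound, at least 2.74-fold lower with TGF-beta1. That bound sets the untreated signal against the lowest detected signal of the TGF-beta1 array, 87.6. Of the 200 probes detected on 1 array only, 3 (1.5%) had a bound of at least 2-fold lower and 1 (0.5%) of at least 2-fold higher. Only the 129 detected on the untreated array alone could have a bound in the lower direction. Only the 71 detected on the TGF-beta1 array alone could have one in the higher direction, so shares of the 200 understate both. Ibsp was 1 of the 3 with a bound of at least 2-fold lower, and no other of the 6 genes reached 2-fold in either direction. Total RNA of a whole culture was measured, so fewer cells that make a transcript and less of it per cell cannot be told apart, here or for the other genes.

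The Ibsp spot lay in block K3, 1 of 48 blocks of the array. Among 18 other detected probes of that block, log2 ratios ran from -0.52 to 0.72 with a median of 0.13. The bound of Ibsp was -1.45 on the same scale. The part of array position in its difference was not tested. With the block median or the median of its 14 nearest spots subtracted, the measured log2 ratio was -2.29 or -2.08. The bound was 2.31-fold or more under all of the scaling and position alternatives, except that it fell to 1.83-fold, under 2-fold, when an offset of 96.7 was added to every signal.

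Bglap, in contrast, had nearly the same signal on both arrays, and a strong one. Its intensity was 840 with TGF-beta1 and 846 without, 9.61 and 9.68 times the threshold. The log2 ratio was -0.01, and 365 of the 795 probes detected on both arrays (45.9%) had a lower one. The value stayed between -0.15 and 0.24 over 9 alternative ways of processing, among them the authors' deposited ratio, which repeats the main value. Relative to the median of its block it was 0.22, and relative to that of its 24 neighbours 0.24. Mouse osteocalcin has near-identical copies, Bglap2 and Bglap3, neither of which was matched to a probe of its own. Signal from these copies was not separated from that of Bglap, so a difference between the copies would not be seen.

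Sparc, an abundant osteoblast transcript, was lower on the TGF-beta1 array by its deposited values. The intensity was 631 with TGF-beta1, against 946 without, both over 7 times the threshold. The log2 ratio was -0.58, a 1.5-fold difference, and 65 of the 795 probes detected on both arrays (8.18%) had a lower one. This value changed with the nearby probes taken as its reference. Sparc lay in block D4, where all 77 other measured probes had a median log2 ratio of -0.73, the 19 detected ones a median of -0.37, and the 14 detected on both arrays a median of -0.09. Within the 19 detected probes, the 9 brighter had a median of -0.13 and the 10 dimmer of -0.55. The adjusted log2 ratio of Sparc was accordingly 0.14 with the median of the whole block, 0.12 with that of its 15 neighbours, and -0.21 with that of the detected probes of the block. Of these 19 probes, 8 lay below Sparc. The median of the whole block includes probes detected on neither array, and no adjustment used only probes detected on both. Neither the direction nor the size of the difference of Sparc was the same across these choices. Over all 9 alternatives its log2 ratio was below 0 in 7 and above 0 in 2. Those without a position adjustment gave -0.70 to -0.52. The part of array position in the difference was not tested.

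**Figure D2:**
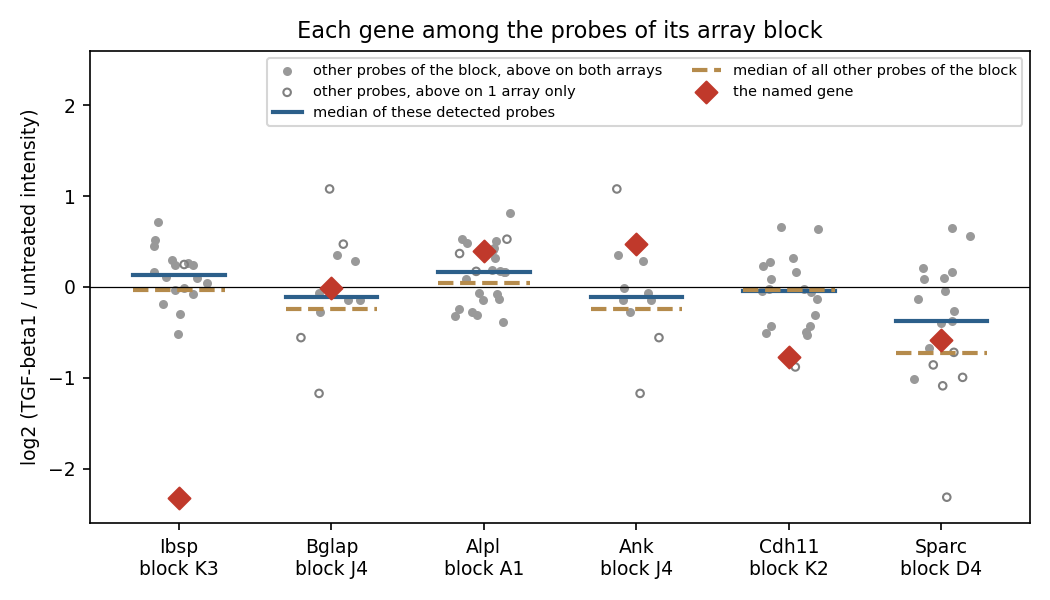
Log2 ratio of TGF-beta1 over untreated intensity (vertical axis) for each gene (diamond) and for the other detected probes of its array block (filled where detected on both arrays, open where on 1), with the median of these detected probes (solid line) and of all other probes of the block (dashed line). The diamond of Ibsp, at a measured -2.32 with the treated spot under the threshold, lies below the detected probes of block K3, which start at -0.52, whereas Sparc lies between the 2 medians of block D4, which differ from each other.

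The pyrophosphate-handling pair had small differences in the other direction, at low signal. Alpl had an intensity of 124 with TGF-beta1, against 94.1 without, 1.41 and 1.08 times the threshold. The 1.31-fold difference gave a log2 ratio of 0.39, and 654 of the 795 probes detected on both arrays (82.3%) had a lower one. Across 9 alternatives it ranged from 0.21 to 0.46 and was above 0 in all of them. Among 24 other detected probes of its block, A1, 17 lay below it.

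Ank had an intensity of 88.3 with TGF-beta1, only 0.885 units over the threshold, against 63.7 without. Its measured log2 ratio was 0.47, but the bound was 1.01-fold, so the difference is not set apart from the level of the control spots. Ank and Bglap lay in the same block, J4, where the 10 other detected probes of each had log2 ratios from -1.17 to 1.08 with a median of -0.11. The measured log2 ratio of Ank was 0.70 relative to the block median and 0.47 relative to its neighbours.

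Cdh11 was the second gene detected without TGF-beta1 only. Its intensity was 83.2 with TGF-beta1, 0.952 times the threshold, against 142 without. The measured log2 ratio was -0.77 and the bound was at least 1.62-fold lower. Of the 200 probes detected on 1 array, 19 (9.5%) had a bound of at least 1.5-fold lower. All 19 came from the 129 detected on the untreated array alone, so the share among probes that could be lower is larger. In block K2, the 19 other detected probes had a median of -0.05. Subtraction of block or neighbour medians left log2 ratios of -0.73 and -0.68. With the offset the bound was 1.29-fold.

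**Figure D3:**
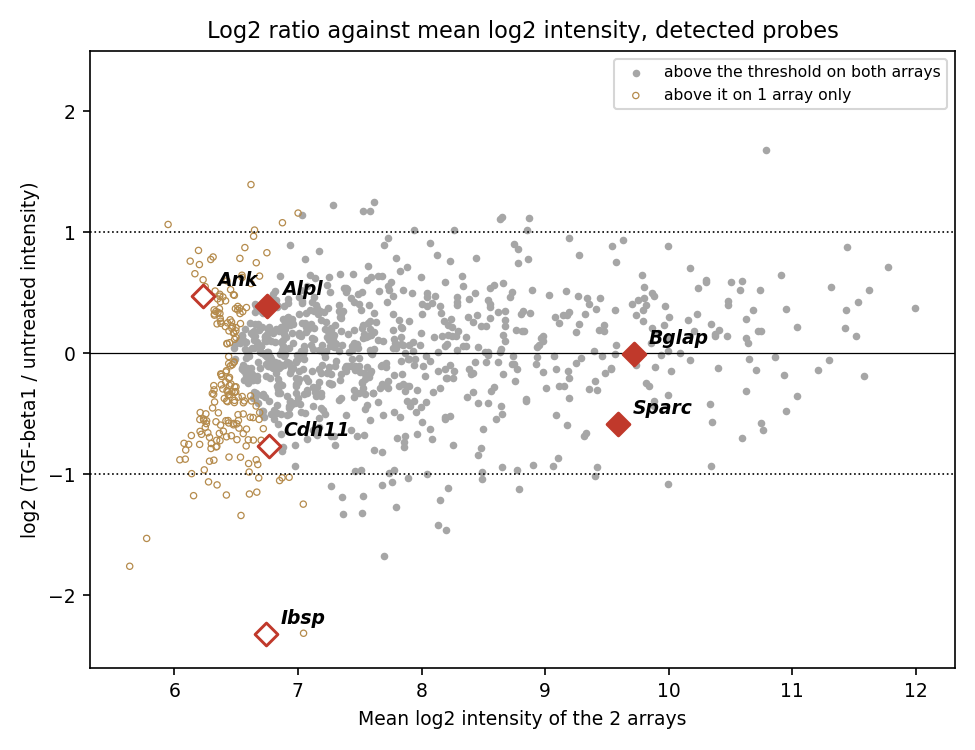
Log2 ratio of TGF-beta1 over untreated intensity (vertical axis) against the mean log2 intensity of both arrays (horizontal axis) for the 995 probes detected on at least 1 array, with the 6 genes as diamonds (filled where detected on both arrays) and dotted lines at 2-fold. Ibsp lies below the 2-fold line and the other 5 genes lie between the lines.

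Over the 6 genes, 4 had a lower and 2 a higher measured signal with TGF-beta1, where 50.4% of the 995 detected probes were lower and 49.6% higher. Because the same contrast entered the choice of genes, nothing is read from this count. Their median log2 ratio was -0.30, where the median of all detected probes was -0.01. The median of the 6 was 0.18 after subtraction of block medians, 0.18 after that of neighbour medians and -0.058 with medians of detected block probes, so its sign was not the same across these choices. Over the 3 genes detected on both arrays it was -0.01, where the 795 probes had a median of 0.03. Of these 795 probes, 12 (1.51%) were at least 2-fold higher and 18 (2.26%) at least 2-fold lower, and 0 of the 3 genes were among them. The counts were 19 higher and 10 lower relative to block medians, 25 and 10 relative to neighbour medians, and 1 and 3 with the offset, so the balance of higher and lower probes turned with position adjustment. Only the position adjustments gave a value above 0 to Bglap or Sparc, while Ibsp and Cdh11 were below 0 and Alpl and Ank above 0 under each of the 9 alternatives. The 9 are not equal checks of sign. The authors' deposited ratio repeats the main value, and an added offset cannot change a sign.

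**Figure D4:**
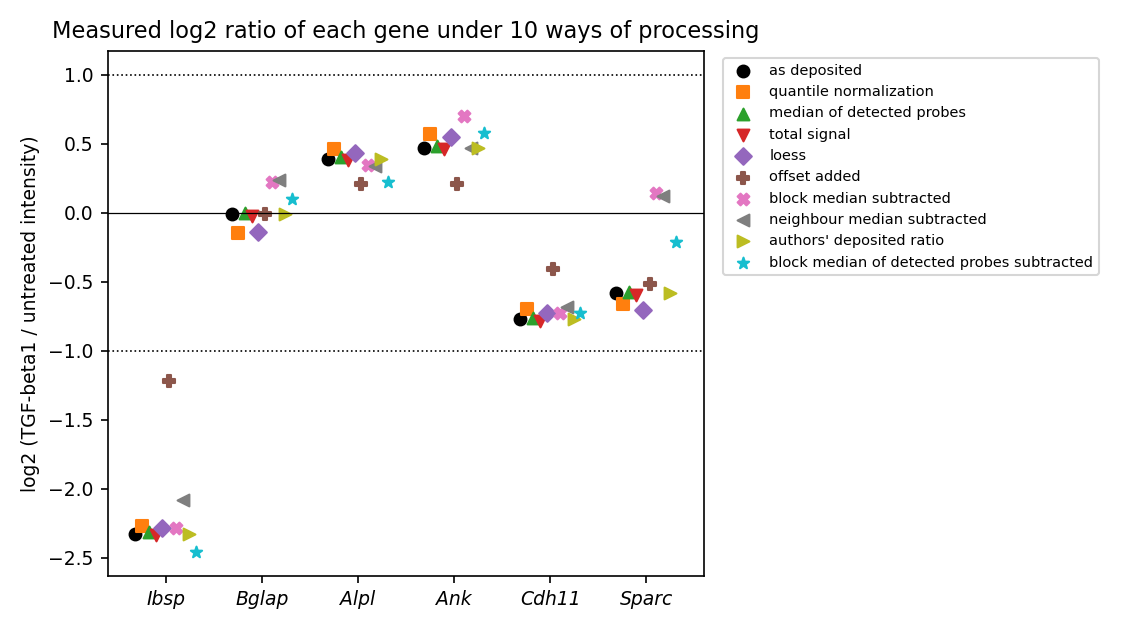
Measured log2 ratio of TGF-beta1 over untreated intensity (vertical axis) of each gene under 10 ways of processing, the deposited values and 9 alternatives, with dotted lines at 2-fold. The measured ratio of Ibsp, whose treated spot was under the threshold, lies below the lower line in every case, from -2.46 to -1.22. Its bound, not drawn, was 1.83-fold with the offset. Sparc spreads across 0, from -0.70 to 0.14, and is above 0 only after subtraction of block or neighbour medians.

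By the distance between log2 intensities on both arrays, the probes nearest to each gene were listed, 2 per gene, as a description over 2 samples. Those of Ibsp were Syngr1 and Saa3, those of Cdh11 were Rpl19 and a probe named brachyury 2, and those of Ank were Myadm and Vps4b. No distance is given for these 3 genes, because each had a signal under the threshold on 1 array. Bglap was nearest to Gng2 at 0.048 and Itgae at 0.067, Sparc to Cacna1g at 0.31 and Mt1 at 0.33, and Alpl to Rhpn1 at 0.024 and Klk1b5 at 0.038.

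Other genes of phosphate handling and mineralization were mostly under the threshold, as were most probes of the array. Of 12 such genes on the array besides the 6, 2 were detected, both on both arrays. Of all 3757 probes, 26.5% were detected on at least 1 array, so nothing is read from that count. Of the 2, 0 reached 2-fold, where 1.51% of all probes detected on both arrays were at least 2-fold higher and 2.26% lower. Ggcx, the carboxylase that modifies the glutamate residues of osteocalcin, had 121 with TGF-beta1, against 195 without, a log2 ratio of -0.68 that was -0.64 and -0.66 after subtraction of block and neighbour medians. Slc34a1, a sodium-phosphate cotransporter of the kidney, had 119 with TGF-beta1 and 120 without. The pyrophosphate-producing enzyme Enpp1, the phosphate importer Slc20a1, the mineralization inhibitor Mgp and the endopeptidase Phex were among the 10 not detected. In the list of alkaline and acid phosphatases, Acp6 had 197 with TGF-beta1, against 314 without, a log2 ratio of -0.67, and the osteoclast phosphatase Acp5 was not detected.

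Genes of the collagen scaffold and of other matrix proteins were described in the same way. Of 10 genes of bone collagen and matrix proteins on the array, 6 were detected, 4 with lower and 2 with higher measured signals. Of these, 0 reached 2-fold on both arrays or by their bound. Of all probes, 26.5% were detected on at least 1 array, and 50.4% of those detected had a lower signal, so nothing is read from these counts. Col1a2, a chain of type I collagen, had 1132 with TGF-beta1 and 1174 without, and Col5a2, a chain of type V collagen, had 163 with and 150 without, a log2 ratio of 0.13. The cross-linking enzyme Lox had 608 with TGF-beta1, against 354 without, a log2 ratio of 0.78. Pcolce, the enhancer of procollagen processing, had a log2 ratio of -0.32, while lumican, Lum, and Col11a1 were each detected without TGF-beta1 only, with bounds of 1.18-fold lower. The median log2 ratio of the 6 was -0.19. It was -0.028 after subtraction of block medians, with 3 below 0 and 3 above, and -0.051 after that of neighbour medians, with 4 below and 2 above. Pcolce and Col11a1 were then at -0.11 and -0.32 relative to block medians.

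Among the relatives of Sparc and Cdh11 on the array, 0 reached 2-fold on both arrays or by their bound. Of all probes detected on both arrays, 1.51% were at least 2-fold higher and 2.26% at least 2-fold lower. Of all probes, 26.5% were detected on at least 1 array. Nothing is read from the 0 or from the counts of detected genes below. Of 10 SPARC family and matricellular genes on the array besides Sparc, 4 were detected, all with log2 ratios below 0 and a median of -0.17, where 50.4% of all detected probes were below 0. After subtraction of block medians 3 were below 0 and the median was -0.031, and after that of neighbour medians 3 were below 0 and the median was -0.10. Fstl1, a secreted follistatin-like relative of Sparc, had 207 with TGF-beta1, against 280 without, a log2 ratio of -0.43. Thbs4 was detected without TGF-beta1 only, with a bound of 1.15-fold lower, and its measured log2 ratio of -0.32 was -0.05 and -0.11 after these subtractions. Ccn2, which encodes connective tissue growth factor, and tenascin C, Tnc, had log2 ratios of -0.02 and -0.01, and that of Tnc was 0.03 and 0.11 after them. Of 5 cadherin and catenin genes besides Cdh11, only Cdh16, a cadherin of the kidney, was detected, with 137 with TGF-beta1 and 124 without. Among 7 osteoblast transcription factors on the array, only Fosl1, a component of AP-1, was detected, with a log2 ratio of -0.10. Runx3, Twist1, Smad3 and Id2 were among the 6 under the threshold.

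**Figure D5:**
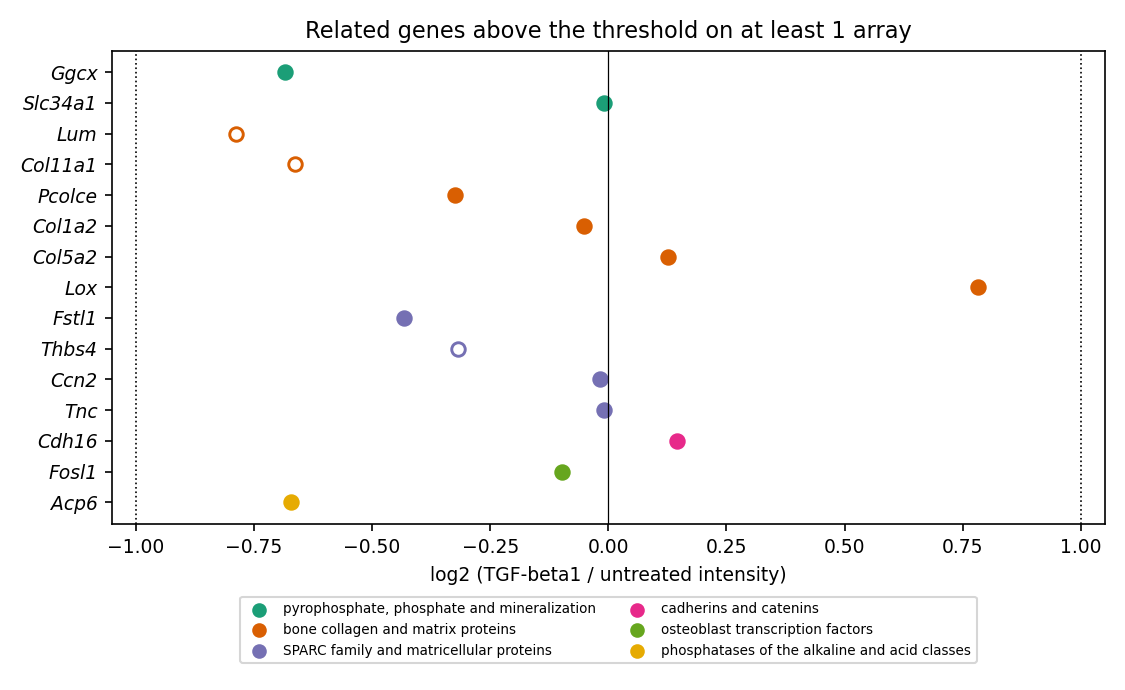
Log2 ratio of TGF-beta1 over untreated intensity (horizontal axis) of the 15 genes of the related lists detected on at least 1 array, coloured by list, filled where detected on both arrays and open where on 1, with dotted lines at 2-fold. All 15 lie within 2-fold, with Lox at the high end at 0.78 and Lum at the low end at -0.79.

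Markers of cell types were set beside the label of the cells, without a test. Of all 3757 probes, 26.5% were detected on at least 1 array. Of 11 defining osteoblast markers, 7 were on the array and 6 were detected on at least 1 array, the sixth being Col1a2 beside Alpl, Bglap, Ibsp, Sparc and Cdh11. These last are among the 6 genes chosen by earlier results on the same intensities, so their detection is no independent check of the label. Without the 6 genes, 2 osteoblast markers were on the array and 1, Col1a2, was detected. The parathyroid hormone receptor gene Pth1r was under the threshold with 69.4 with TGF-beta1 and 67.5 without. Of other cell types, 0 of 4 chondrocyte, 0 of 2 erythroid and 0 of 1 osteocyte markers were detected, and 0 of the 6 endothelial markers were matched to a probe. In the macrophage and osteoclast list 1 of 3 matched by symbol was detected, Ctsk, which stood at 56.8 with TGF-beta1 and 95.8 without. A further probe of that list, named CD68 antigen, got no symbol from its accession and was not detected, at 36.2 with and 39.1 without. In the B and T cell list 1 of 5 was detected, Cd79b, at 93.4 with and 86.2 without. Of 4 adipocyte markers 2 were detected, Cfd and Slc2a4, and the summed signal of the 4 was 596 with TGF-beta1 and 562 without. The others were not detected, Pparg at 6.33 with and 17.3 without, and Lpl at 31.0 with and 32.6 without. Of 6 skeletal muscle markers 5 were detected, with a summed signal over the 6 of 1827 with TGF-beta1, against 2154 without. The muscle creatine kinase gene Ckm was the one not detected, at 35.1 with and 35.5 without. Tnnc2, a fast-muscle troponin C, had 502 with TGF-beta1, against 808 without, a log2 ratio of -0.69 that was -0.42 and -0.27 after subtraction of block and neighbour medians. The calcium-binding protein gene Casq1 had 140 with TGF-beta1, against 200 without, a log2 ratio of -0.51, with -0.47 and -0.70 after the subtractions. Tnnc1 was detected without TGF-beta1 only, with a bound of 1.25-fold lower. Tnni2 had 337 with TGF-beta1 and 355 without, and its log2 ratio of -0.07 was 0.27 and 0.34 after the subtractions. Myod1, a muscle-determining transcription factor, had 739 with TGF-beta1 and 646 without, a log2 ratio of 0.19. Thus 4 of the 5 were lower and 1 higher by deposited values, and 3 lower and 2 higher after either subtraction. Whether cells of these other types were present was not tested, nor was any part of them in the values of Ibsp, Cdh11 or Sparc. Probe specificity was not checked.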

How the data were processed

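Total RNA from 1 TGF-beta1-treated and 1 untreated culture was measured on Atlas Glass Mouse 3.8 arrays. The deposited spot intensities had been given a normalization named global in an Atlas Iris 1.01 workbook, per the file headers. A total of 3 negative values on the TGF-beta1 array point to background subtraction before deposit. How it was done, and with which scanner and software, is not given in the sources. The authors' deposited ratio matched the quotient of the intensities, treated over untreated, within 0.0001 for 3754 of 3754 probes. Intensities were joined to gene names through the probe identifiers of the ratio list, which had the same 3774 spots in the same order as the workbook sheet, ratio by ratio. The 17 control spots without identifier were left out, and 16 per-sample workbook columns whose names matched no label were not used. Accessions gave a symbol for 3597 probes through RefSeq's GRCm38.p6 table, used for names and promoter windows.

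The log2 ratio had nothing added. A bound set the bright signal against the higher of the dim signal and the lowest detected signal of the dim array. Alternatives were quantile, median and total scaling, loess with a span of 0.4, an offset of 96.7, and subtraction of block medians or of medians within 2 rows and 2 columns. The authors' deposited ratio was counted among them, although it repeats the quotient of the intensities. Subtraction of medians of detected probes of the block was added after seeing the data. Named genes were the 6 genes, all detected genes of 6 lists, the 2 nearest probes of each gene and detected cell type markers, and a few undetected genes were named for their role after their values were seen. Genes and lists were chosen with earlier results of these data known. The number of arrays limits the precision. Ratios and calls were tested on simulated data. The simulated fold changes were placed in bright probes only, so bounds such as that of Ibsp were not tested by them. Python 3.11.15, pandas 2.3.3 and statsmodels 0.14.6 were used.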

Additional observations from a re-analysis of the deposited data

How the results depend on the processing

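The SD of 0.20 over log2 ratios of the 8 dim lambda spots gave the only scale for a shift. Alpl moved by less than this under all 9 alternatives. With the offset, the measured log2 ratios of Ibsp, Ank and Cdh11 were -1.22, 0.21 and -0.41, and the bounds of Ibsp and Cdh11 were -0.87 and -0.37 as log2 ratios. Subtraction of block medians gave 0.22 for Bglap, 0.70 for Ank, 0.14 for Sparc and 0.24 for the bound of Ank. Subtraction of neighbour medians gave -2.08 for Ibsp, -1.21 for its bound, 0.24 for Bglap and 0.12 for Sparc. These adjustments moved the median of all detected probes from -0.01 to 0.12 and 0.14, so part of each shift is common to detected probes. With medians of detected block probes, Sparc was -0.21. The median over the 6 genes of -0.30 was 0.18 after either position adjustment, -0.058 with medians of detected block probes and -0.010 over genes detected on both arrays.

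Counts of 12 probes at least 2-fold higher and 18 lower were 1 and 3 with the offset, 19 and 10 relative to block medians, 25 and 10 relative to neighbour medians, and 57 and 65 at 1.5-fold. Counting probes detected on at least 1 array gave 17 higher and 34 lower. The cause of these changes was not tested. No paired analysis was possible because each group had 1 sample, and for the same reason no replicate could be left out. Signals near the threshold, as for Ank and Alpl, limit what can be read from small ratios.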
